A study of Sus scrofa and Rattus norvegicus with 8 samples.

Results

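HOX transcription factor genes were described in the upper layer of backfat, a subcutaneous white adipose tissue, of 6 female Bama pigs that were adults of 2 years. A gene was a member when its symbol was HOX followed by a cluster letter from A to D and a number. There were 34 members among the 25880 gene IDs of the pig table, of which 14844 carried a symbol and were encoded in the nucleus. Clusters A and D held 8 members each, and clusters B and C held 9 each. The study deposited 1 RNA-seq library per pig, and all 6 pigs formed a single group, so no comparison between groups was made or tested. HOXA4, HOXA6, HOXA13, HOXB9 and HOXD13 were not analysed here.

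HOX proteins bind DNA through a homeodomain and assign position along the head-to-tail axis of the embryo and along the limb. Their genes lie in 4 clusters, in each of which the members are numbered by position. Low (anterior) numbers are known to be used nearer the head and earlier, and high (posterior) numbers nearer the tail and later. Members with the same number in different clusters are paralogs of each other. Adult stromal cells and fat depots keep part of this positional pattern, and fat from different parts of the body is known to differ in the HOX genes it uses.

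Values were in TPM, a transcript abundance that is corrected for transcript length and set to a fixed total per library, so levels can be set side by side between genes. Named nuclear genes took between 24.1% and 26.3% of the TPM in replicates 1, 2, 3 and 6, but 3.34% in replicate 4 and 4.73% in replicate 5. These libraries stood apart before any HOX gene was considered. Each library was therefore also rescaled so that its named nuclear genes summed to 1000000 (rescaled TPM), and results are given with and without replicates 4 and 5. The depth is unknown because TPM keep no read numbers, so a value listed at 0 has no detection limit attached to it. In bulk tissue, fewer cells of a type and less RNA per cell cannot be told apart.

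The tissue was checked against its markers. All 6 adipocyte markers were over 1 rescaled TPM in every library, led by FABP4, a fatty acid carrier, with a mean of 18679 ± 7299 rescaled TPM (SD, n = 6), and ADIPOQ, which encodes adiponectin, at 2992 ± 520 (SD, n = 6). All 6 progenitor and stroma markers, the 3 endothelial markers with a value and all 4 macrophage markers also passed in every library. So did all 4 smooth muscle markers and 2 of the 4 T and B cell markers. Of all named nuclear genes 74.3% passed. Of the 3 skeletal muscle markers with a value, the 4 keratinocyte markers with a value and the only mesothelial marker with a value, CALB2, 0 passed. Without replicates 4 and 5, the muscle markers ACTA1 (1.09 to 6.36) and CKM (1.04 to 2.30) were over 1 rescaled TPM in each library. So was the keratinocyte marker DSG3 (2.02 to 3.61). The highest level of CALB2 was 0.644 rescaled TPM.

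The 250 bases upstream of the annotated 5′ end are shown for HOXC9, the last member of cluster C measured in every library, and for the neighbours HOXD11 and HOXD12, between which the level went from a measured value to 0. HOXD8 is shown because it had the highest mean rescaled TPM of all members over the 6 libraries. HOXC6 had a higher mean than HOXD8 in TPM as deposited (9.85 against 7.52). It was also higher in rescaled TPM without replicates 4 and 5 (58.4 against 38.6). Sequences are from the Sscrofa11.1 assembly with RefSeq annotation release 106, all 4 on the plus strand, and capitals mark CG dinucleotides.
HOXC9, chr5:19212240-19212489: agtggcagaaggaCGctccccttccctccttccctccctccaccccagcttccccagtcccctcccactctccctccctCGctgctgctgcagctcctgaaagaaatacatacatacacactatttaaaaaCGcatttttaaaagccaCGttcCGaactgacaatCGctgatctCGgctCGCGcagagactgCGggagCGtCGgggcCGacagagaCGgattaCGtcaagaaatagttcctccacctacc
HOXD11, chr15:81906404-81906653: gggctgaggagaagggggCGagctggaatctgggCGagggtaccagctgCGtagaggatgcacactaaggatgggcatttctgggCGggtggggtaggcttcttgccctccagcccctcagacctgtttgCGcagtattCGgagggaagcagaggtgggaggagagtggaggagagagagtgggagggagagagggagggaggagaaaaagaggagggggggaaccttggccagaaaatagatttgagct
HOXD12, chr15:81900712-81900961: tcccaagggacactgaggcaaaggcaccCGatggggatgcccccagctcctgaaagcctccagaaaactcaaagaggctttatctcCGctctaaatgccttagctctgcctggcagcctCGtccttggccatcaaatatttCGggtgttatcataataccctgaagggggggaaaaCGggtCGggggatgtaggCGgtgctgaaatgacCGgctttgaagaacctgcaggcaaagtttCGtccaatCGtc
HOXD8, chr15:81930673-81930922: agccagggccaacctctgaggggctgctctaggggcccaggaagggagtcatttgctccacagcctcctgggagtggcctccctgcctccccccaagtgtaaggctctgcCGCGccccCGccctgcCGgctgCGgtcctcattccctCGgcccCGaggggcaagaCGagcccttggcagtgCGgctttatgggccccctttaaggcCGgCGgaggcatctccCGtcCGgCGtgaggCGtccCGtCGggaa
The window of HOXC9 held 15 CG dinucleotides. The window of HOXD11 held 6, that of HOXD12 held 10 and that of HOXD8 held 17.

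RefSeq had an entry for 32 of the 34 members, and HOXB4 and HOXD4 had none. Over these 32 windows the median GC content was 57.2%, against 57.6% over the windows of 19556 protein-coding genes. The 14 windows of members over 1 rescaled TPM in every library held a median of 11.0 CG dinucleotides, and the other 18 held a median of 11.5. The letters TGATTNAT, a joint HOX and PBX motif, were searched on both strands and were found in 0 of the 32 windows and in 2.03% of all windows. The letters TGACAG, a MEIS motif, were found in 3 windows (9.38%, against 10.7% of all). TATAAA was found in 5 (15.6%, against 9.77%), CCAAT in 11 (34.4%, against 31.9%) and GGGCGG in 9 (28.1%, against 45.9%), each on both strands. None of these 5 motifs contains another. A match describes the letters in the window and says nothing about binding.

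The share of HOX members over the thresholds in every library was smaller than that of named nuclear genes in general. Over 0.1 TPM as deposited in all 6 libraries were 10 of 34 members (29.4%), whereas 67.2% of the named nuclear genes passed. Over 1 rescaled TPM in all 6 libraries were 16 members (47.1%), against 74.3% of the named nuclear genes. Listed at 0 in all 6 libraries were 5 members (14.7%), against 4.01%. The median over members of the mean level was 2.58 rescaled TPM, and over all named nuclear genes it was 16.7.

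The 10 members over 0.1 TPM in every library were HOXA5 and HOXA7, HOXB4, HOXB6 and HOXB7, HOXC9, and HOXD3, HOXD4, HOXD8 and HOXD9. On the rescaled scale HOXB2, HOXB3, HOXC4, HOXC6, HOXC8 and HOXD10 joined them. All but HOXD9, HOXD10 and HOXC9 of these 16 carry paralog numbers below 9. Over all members, 8 carry numbers 1 to 3, 13 carry numbers 4 to 8 and 13 carry numbers 9 to 13. In replicates 1, 2, 3 and 6 alone, 22 members were over 0.1 TPM in each library, against 83.1% of named nuclear genes, and 20 were over 1 rescaled TPM, against 78.5%. The count over 0.1 TPM thus rested largely on replicates 4 and 5, in which 11 and 12 members passed, whereas between 23 and 26 passed in each of the others. As shares these were 32.4% and 35.3% against 67.6% to 76.5%, while of the named nuclear genes 68.2% and 71.1% passed against 85.8% to 86.8%. Over 0.1 TPM in at least 1 library were 27 members, against 89.9% of named nuclear genes.

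**Figure D1:**
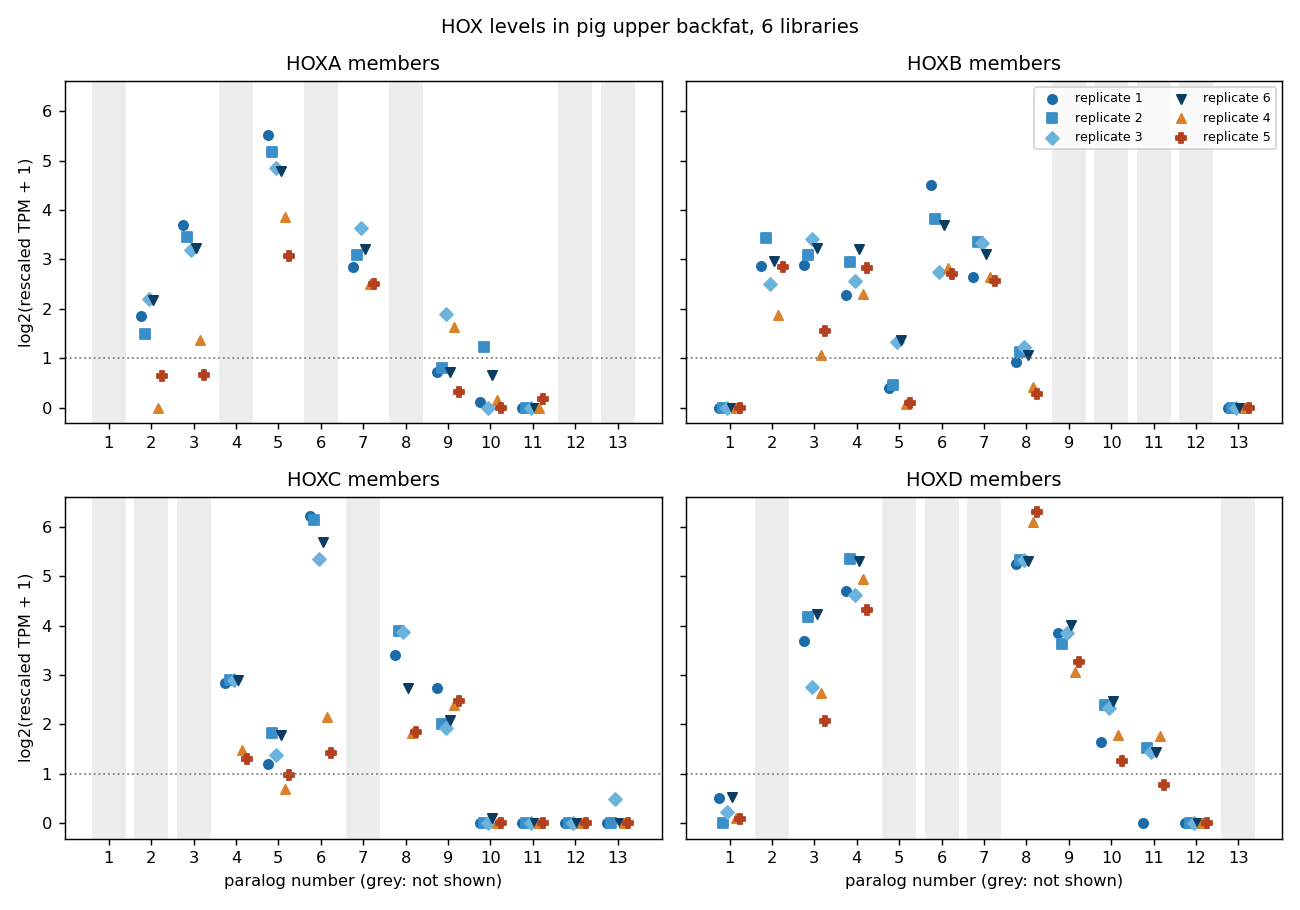
Level of each HOX member as log2(rescaled TPM + 1) against its paralog number, with 1 panel per cluster and 1 marker per library. Orange and red mark replicates 4 and 5, the dotted line is 1 rescaled TPM and grey bars mark numbers not shown. Levels are highest at central numbers and at or near 0 from HOXC10, HOXA11 and HOXD12 onward.

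The highest members by median were HOXC6 and HOXD8, which belong to different clusters. HOXC6, a central member of cluster C, was at 73.9, 69.4, 39.8, 3.45, 1.69 and 50.5 rescaled TPM in replicates 1 to 6, with a median of 45.2. HOXD8, a central member of cluster D, was at 37.0, 39.4, 39.5, 67.4, 77.6 and 38.5, with a median of 39.4. In rescaled TPM the pair moved in opposite directions in replicates 4 and 5, where HOXC6 was at its lowest and HOXD8 at its highest. In TPM as deposited HOXD8 was also lowest there, at 2.25 and 3.67 against 9.24 to 10.3 in the others, so its direction rests on the scaling. In the other 4 libraries HOXD8 hardly varied (CV 0.0298) and HOXC6 varied more (CV 0.274).

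HOXD4 and HOXA5 came next. HOXD4, an anterior neighbour of HOXD8, was at 25.1, 39.7, 23.5, 29.9, 19.0 and 38.6 rescaled TPM, and replicates 4 and 5 did not both stand outside the others. HOXA5, known from patterning of the neck and upper trunk skeleton and from lung development, was at 45.1, 35.3, 27.8, 13.5, 7.40 and 26.6. Its levels in replicates 4 and 5 were below all of the others. The ranges over 6 libraries of HOXC6, HOXD4 and HOXA5 overlapped one another, so their order is not larger than the spread between pigs. The range of HOXD8 overlapped those of all 3 as well.

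HOXD9, the first posterior member of cluster D, was at 13.4, 11.5, 13.4, 7.33, 8.61 and 15.1 rescaled TPM. Each of its values was below every value of HOXD4 and of HOXD8, whereas its range overlapped those of HOXA5 and HOXC6. HOXB6, the highest member of cluster B, was at 21.7, 13.2, 5.66, 6.10, 5.53 and 12.1. Replicate 3 was among its low libraries along with replicates 4 and 5, so replicates 4 and 5 did not both lie below all others.

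HOXD3, an anterior member of cluster D, was at 11.9, 17.1, 5.81, 5.21, 3.17 and 17.8 rescaled TPM. HOXA3, its paralog in cluster A, was at 11.9, 9.94, 8.09, 1.59, 0.579 and 8.45. The third paralog, HOXB3, was at 6.37, 7.54, 9.61, 1.09, 1.95 and 8.38. All 3 paralogs of number 3 had their 2 lowest values in replicates 4 and 5. HOXC8, the neighbour of HOXC6 on its posterior side, was at 9.62, 13.8, 13.7, 2.57, 2.60 and 5.72, also with its lowest values in these libraries.

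HOXC9 is used as a marker of white fat in mouse and was singled out among HOX genes by the study. It was at 5.70, 3.04, 2.78, 4.29, 4.53 and 3.27 rescaled TPM, a mean of 3.93 ± 1.11 (SD, n = 6), and at 1.42, 0.732, 0.729, 0.143, 0.214 and 0.861 TPM as deposited. It was over 0.1 TPM in every library. Its median placed it in position 16 of 34, and it was among the 10 highest members in 2 libraries, replicates 4 and 5. HOXC9 lies at chr5:19212490-19215859, and its posterior neighbour HOXC10 at chr5:19197810-19202975.

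The members of cluster A described here span chr18:45388523-45480306. Their highest level was at HOXA5, followed by HOXA7 with 7.14 ± 2.58 and HOXA3 with 6.76 ± 4.60 rescaled TPM (SD, n = 6 for these and the following means). HOXA2, which patterns the hindbrain, had a mean of 2.01 ± 1.50. The posterior members were lower, with HOXA9 at 1.19 ± 0.991 and HOXA10, known from uterus and limb, between 0 and 1.34 rescaled TPM. HOXA11, which patterns the forearm and the uterus, was listed at 0 in 5 libraries and at 0.124 in replicate 5.

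Cluster B, at chr12:24784953-24950661, had a run of members at like levels. HOXB6 had a mean of 10.7 ± 6.35, and HOXB7, HOXB2, HOXB3 and HOXB4 lay between 5.61 and 6.90 rescaled TPM. HOXB8 (0.844 ± 0.466) and HOXB5 (0.652 ± 0.709) were lower, although HOXB5 lies between higher neighbours. Its lowest value was 0.0534 in replicate 4 and its highest 1.60 in replicate 6. HOXB1, at the anterior end, and HOXB13, known from prostate and tail bud at the posterior end, were listed at 0 in all 6 libraries.

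Cluster C, at chr5:19151096-19268267, fell from measured levels to 0 between neighbours. HOXC6 (39.8 ± 31.4), HOXC8 (8.01 ± 5.16), HOXC4 (4.80 ± 2.46), HOXC9 (3.93 ± 1.11) and HOXC5 (1.58 ± 0.776) were measured in every library. HOXC10, a marker of lower-body subcutaneous fat in people, was listed at 0 in 5 libraries and at 0.0745 rescaled TPM in replicate 6. HOXC11 and HOXC12 were listed at 0 in all 6. HOXC13, known for its part in hair and nail, had a value only in replicate 3, of 0.415 rescaled TPM.

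The members of cluster D with a RefSeq entry span chr15:81900962-81990026. Levels in cluster D showed a stepwise series toward the posterior numbers. Mean levels were 49.9 ± 17.9 for HOXD8, 11.6 ± 3.04 for HOXD9, 3.14 ± 1.33 for HOXD10 and 1.40 ± 0.879 for HOXD11, and HOXD12 was listed at 0 in all 6 libraries. HOXD11 was listed at 0 in replicate 1 and lay between 0.716 and 2.40 rescaled TPM in the others. On the anterior side HOXD4 (29.3 ± 8.41) and HOXD3 (10.2 ± 6.35) were followed by HOXD1, which was between 0 and 0.449. Cluster D reached further into posterior numbers than cluster C, where HOXC10 and HOXC11 were at or near 0.

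The members not over 0.1 TPM in any library were the 5 listed at 0 throughout (HOXB1, HOXB13, HOXC11, HOXC12 and HOXD12), HOXA11 (up to 0.00585 TPM) and HOXC10 (up to 0.0196 TPM). All but HOXB1 of these 7 carry numbers of 10 or above. So do HOXA10, HOXC13, HOXD10 and HOXD11, which were over 0.1 TPM in at least 1 library. Of all named nuclear genes 89.9% were over it in at least 1 library. HOXC13 reached 0.109 TPM in 1 library.

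In the RefSeq annotation some members share exonic bases with other genes, which may make their values uncertain. The TPM were given per Ensembl gene ID, so overlaps in the gene models used for them may differ from those listed here. HOXD9 and HOXD11 share 86 exonic bases on the same strand. HOXA5 shares 257 with HOXA6, and HOXA3 shares 81 with HOXA6 and 59 with HOXA4, also on the same strand. Exons of opposite-strand genes overlap 754 bases of HOXA9, 899 of HOXB3 and 213 of HOXC6, and those of HOXA3 share 405 bases with 1 such gene and 109 with another. The libraries were stranded, but whether the quantification used strand was not stated in any source used here.

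The nearest named gene on each side of each cluster was looked up in the same libraries. On the posterior side EVX2, a homeobox gene next to cluster D, was listed at 0 in all 6 libraries, and EVX1, next to cluster A, was between 0 and 0.120 rescaled TPM. On the anterior side SKAP2, an adaptor protein gene, had a mean of 64.7 ± 32.1 and MTX2, a mitochondrial import gene, of 66.4 ± 23.9. Beside cluster C, CALCOCO1 had 134 ± 83.5 on the posterior side and the DNA repair gene SMUG1 had 10.8 ± 0.968 on the anterior side. Beside cluster B, TTLL6 had 1.91 ± 0.906 on the posterior side and SKAP1 had 4.03 ± 3.01 on the anterior side. The posterior neighbour was at or near 0 for clusters A and D and not for clusters B and C.

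Shares of the summed HOX TPM are free of the scaling of a library. The sum is over the 34 members, so it lacks HOXA4, HOXA6, HOXA13, HOXB9 and HOXD13. Paralog numbers 4 to 8 took 78.4 ± 3.29% of it (SD, n = 6), between 73.8% and 82.2% in single libraries. Numbers 1 to 3 took 12.5 ± 4.02% and numbers 9 to 13 took 9.11 ± 1.56%. Without replicates 4 and 5 the central numbers took 76.5%, the low numbers 15.0% and the high numbers 8.50%. Among the blocks, the low numbers were below the other 4 libraries in replicates 4 and 5, at 6.82% and 8.31% against 13.5% to 16.9%. The central numbers were above them, at 82.2% and 82.0% against 73.8% to 78.5%.

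By single number, number 8 took 27.1 ± 14.8%, number 6 took 18.1 ± 11.0%, number 4 took 16.5 ± 3.30% and number 5 took 10.8 ± 3.58%. The spread of the first pair was wide. Number 8 took 41.4% and 49.9% in replicates 4 and 5 and between 15.8% and 22.3% elsewhere. Number 6 went the other way, with 5.62% and 4.48% against 18.6% to 31.7%. Number 7 took 5.83 ± 1.50%, number 9 took 7.05 ± 1.29% and number 3 took 8.51 ± 3.57%. Numbers 10 and 11 took 1.40% and 0.640% on average, number 13 took 0.0282% and number 12 was at 0.

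**Figure D2:**
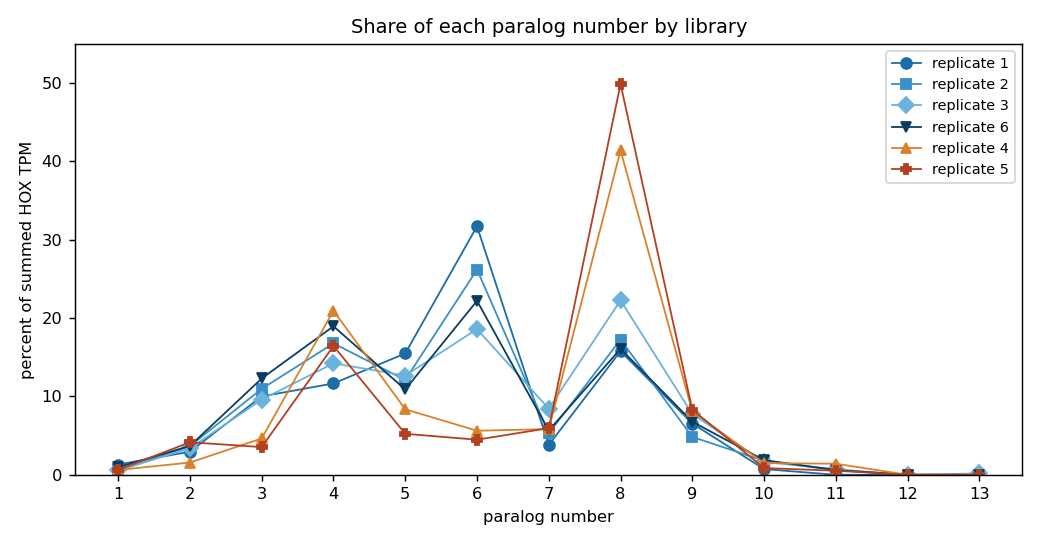
Percent of the summed HOX TPM of each library by paralog number, 1 line per library. Replicates 4 and 5 reach 41.4% and 49.9% at number 8 and 5.62% and 4.48% at number 6, where the other libraries lie between 18.6% and 31.7%.

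By cluster, cluster D took the largest mean share, 46.6 ± 17.0%, followed by C with 21.3 ± 11.2%, A with 17.4 ± 5.41% and B with 14.7 ± 1.70% (SD, n = 6). In replicates 1 to 6 cluster D took 29.9%, 36.1%, 36.0%, 67.6%, 68.6% and 41.5%. Cluster C took 32.1%, 30.2%, 26.5%, 7.50%, 6.98% and 24.3%. Cluster D was the highest in 5 of the 6 libraries, and in replicate 1 cluster C was above it. Without replicates 4 and 5 cluster D took 35.9 ± 4.76% and cluster C 28.3 ± 3.52% (SD, n = 4).

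HOXD8 and HOXC6 carried most of this shift. HOXD8 alone took between 12.3% and 16.1% of the HOX sum in replicates 1, 2, 3 and 6, and 39.7% and 48.1% in replicates 4 and 5. HOXC6 took between 16.3% and 24.5% and then 2.03% and 1.05%. With HOXD8 left out, cluster D took 31.4% on average, C 26.1%, A 22.5% and B 20.0%.

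**Figure D3:**
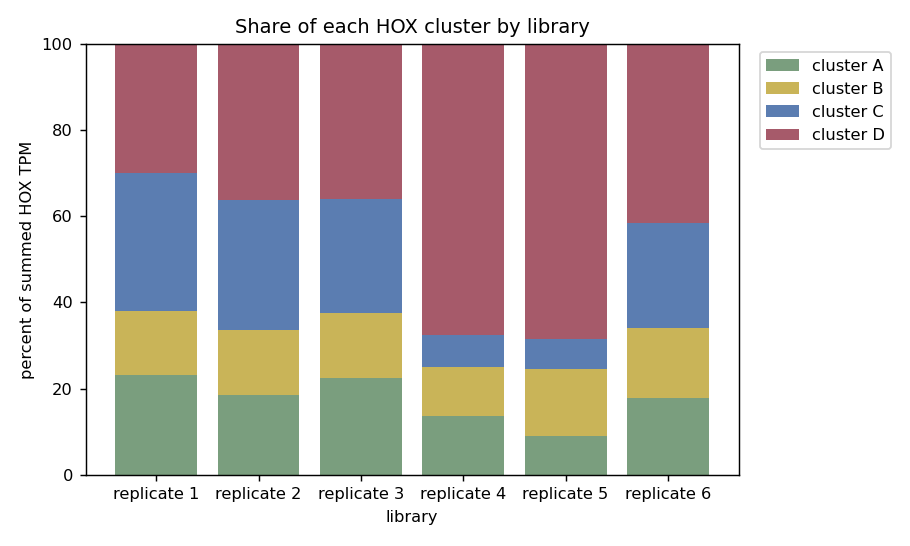
Stacked bars of the percent of the summed HOX TPM taken by clusters A to D in each of the 6 libraries. Cluster D takes 67.6% and 68.6% in replicates 4 and 5 and at most 41.5% elsewhere.

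The order of the members was alike between libraries except for this split. HOXD8, HOXD4, HOXA5 and HOXD9 were among the 10 highest members in all 6 libraries, and 15 members were among them in at least 1. Across the 34 members, the Spearman correlation between libraries was 0.929 to 0.971 among replicates 1, 2, 3 and 6, 0.937 between replicates 4 and 5, and 0.855 to 0.894 between the 2 sets. These correlations are across genes of shared libraries and describe these libraries only. HOXC6 moved most, from position 1 to position 14.

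Replicates 4 and 5 differed from the rest over most genes, so HOX members were read against all genes. The summed HOX level was 245 to 315 rescaled TPM in replicates 1, 2, 3 and 6, and 170 and 161 in replicates 4 and 5. Of the 22 members with a mean of at least 1 rescaled TPM, 13 (59.1%) were lower in both replicates 4 and 5 than in each of the other 4, against 50.1% of the 12130 named nuclear genes with such a mean. Only HOXD8 (4.55%) was higher in both, against 10.4%. The median named nuclear gene was lower by a log2 difference of -0.47 in replicate 4 and -0.52 in replicate 5, with log2(rescaled TPM + 1), and the median of the 22 members was at -0.84 and -0.68.

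These counts depend on the scaling. In TPM as deposited HOXD8, too, was lower in both replicates 4 and 5 than in each of the other 4. On that scale named nuclear genes as a whole took 3.34% and 4.73% of the TPM in these libraries, against 24.1% to 26.3% in the others. Members were therefore not counted on it. With the median of all genes set equal, 7 members (31.8%) were lower in both, against 25.4% of genes, and 2 (9.09%), HOXD8 and HOXC9, were higher, against 31.2%. Quantile normalization gave the same counts of members, against 25.8% and 27.4% of genes. The 7 lower members were HOXA2, HOXA3, HOXA5, HOXB3, HOXC4, HOXC6 and HOXC8 under both. HOXC9 was within the range of the other libraries in rescaled TPM and above it after either of these scalings, so its direction rests on the scaling.

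Relative to the median of all named nuclear genes, HOXC6 had a log2 difference of -3.29 in replicate 4 and -3.96 in replicate 5 from the median of the other 4 libraries. HOXA3 was at -1.50 and -2.16, and HOXC8 at -1.34 and -1.27. As deposited, HOXC6 was at 0.115 TPM in replicate 4 and under 0.1 TPM in replicate 5. HOXA3 was at 0.0531 and 0.0274 TPM in these libraries, and HOXC8 at 0.0859 and 0.123 TPM. These values lie near or under 0.1 TPM, so the sizes of these 3 differences are uncertain. On the other side HOXD8 was at 1.25 and 1.50 and HOXC9 at 0.82 and 0.94. HOXA7 and HOXB7, at -0.17 and -0.12 and at -0.12 and -0.14, lay close to the median gene. Of the 22 members, 16 were below the median gene in replicate 4 and 17 in replicate 5.

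**Figure D4:**
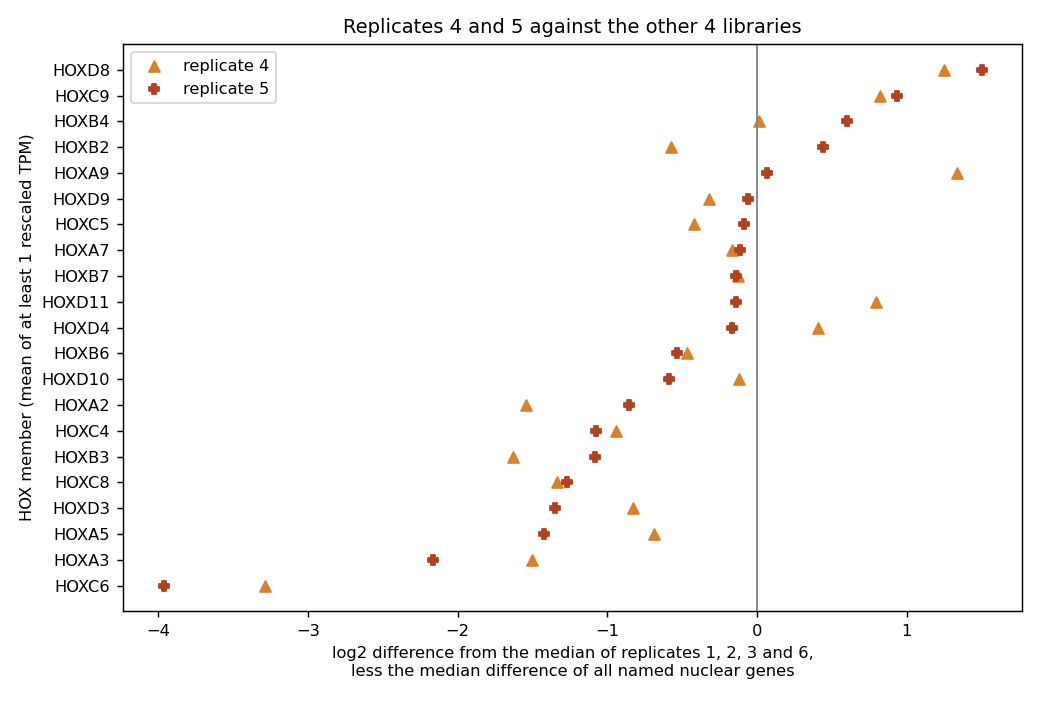
For 21 of the 22 HOX members with a mean of at least 1 rescaled TPM, the log2 difference of replicates 4 and 5 from the median of replicates 1, 2, 3 and 6, less the median difference of all named nuclear genes. HOXC6 lies lowest, at -3.29 and -3.96, and HOXD8 at 1.25 and 1.50.

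Cell type markers also differed in the same libraries, as genes in general did. Sums are given beside the number of markers whose levels in replicates 4 and 5 were both below each of the other 4. This held for 50.1% of named nuclear genes with a mean of at least 1 rescaled TPM. With median-centring it held for 25.4%. The summed level of the 6 progenitor and stroma markers was 5208 and 5449 rescaled TPM in replicates 4 and 5 and between 8202 and 15393 in the others, with 4 of 6 markers below. That of the 3 endothelial markers was 529 and 642 against 953 to 1139, with 3 of 3 below. That of the 4 macrophage markers was 323 and 187 against 399 to 515, with 2 of 4 below. The 4 smooth muscle markers were at 451 and 436 against 530 to 898, with 2 of 4 below, whereas TAGLN was highest in replicate 4 (347 against 238 to 294). The 4 T and B cell markers were at 7.72 and 9.19 against 14.3 to 25.8, with 1 of 4 below, the B cell marker CD79A (1.12 and 0.911 against 8.24 to 12.6). The sum of the 6 adipocyte markers, most of it FABP4, was 25531 and 34457 against 17384 to 31859. Of these 6, PLIN1, LIPE and PPARG were below each of the other libraries, and CIDEC was above, with 892 and 856 against 391 to 647. With median-centring, 1 adipocyte marker was below and 2 were above. The sums for skeletal muscle (0.945 and 0.887 against 2.19 to 10.98) and keratinocyte markers (1.29 and 2.24 against 3.17 to 4.66) were low in all libraries. After median-centring 2 stromal, 1 endothelial, 2 macrophage, 2 smooth muscle and 1 T and B cell marker were below. Transcript length and GC content had Spearman correlations of -0.20 and 0.15 with the difference of replicate 4 across 20 members, and of -0.29 and 0.27 with that of replicate 5. Across 11133 named nuclear genes they were -0.23 and -0.17 for replicate 4 and -0.32 and -0.12 for replicate 5, so the sign for GC content was opposite to that of the members. The part of any of these in the HOX differences was not tested.

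The level of HOX members varied between pigs by a CV whose median was above that of all genes. The median CV of the 22 members was 0.523 in rescaled TPM, against 0.327 over the 12130 genes and 0.358 over the 8177 genes whose means lay within the range of the members, 1.19 to 49.9. Without replicates 4 and 5 the median CV was 0.294, against 0.188 and 0.213. With median-centring it was 0.407 over the members and 0.307 over all genes. The least variable members over all 6 libraries were HOXD9 (0.263), HOXC9 (0.282), HOXD4 (0.287) and HOXB7 (0.292). HOXA9 (0.833), HOXC6 (0.789) and HOXA2 (0.747) varied most among the 22. In the 4 libraries alone HOXC4 (0.0262) and HOXD8 (0.0298) varied least.

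HOX proteins bind DNA together with the TALE homeodomain proteins of the PBX, MEIS and PKNOX families. Of 7 such genes with a value, 6 were over 1 rescaled TPM in every library, against 74.3% of named nuclear genes. PBX2 had a mean of 48.7 ± 17.5, MEIS2 of 44.0 ± 14.9, PBX3 of 17.9 ± 7.31, PKNOX1 of 12.8 ± 6.89 and MEIS1 of 10.9 ± 4.65 rescaled TPM (SD, n = 6). The median over the list was 12.8, above the 2.58 of the HOX members and below the 16.7 of all named nuclear genes. In replicates 4 and 5, 6 of the 7 were below each of the other 4 libraries in rescaled TPM, against 50.1% of genes, and 4 were with median-centring, against 25.4%.

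Polycomb proteins keep HOX genes silent and Trithorax proteins keep them active. Over 1 rescaled TPM in every library were 15 of 16 Polycomb genes, led by RNF2 (193 ± 96.5), EZH1 (121 ± 51.2), PHC3 (92.0 ± 42.2), SUZ12 (56.5 ± 15.1) and BMI1 (44.1 ± 4.16). All 11 Trithorax and H3K27 demethylase genes passed, led by DPY30 (328 ± 87.6), PSIP1 (112 ± 64.8), KDM6A (73.1 ± 27.3), KMT2C (69.6 ± 42.1) and KMT2A (65.2 ± 41.1). The share passing over all named nuclear genes was 74.3%. The medians of the lists were 28.9 and 25.0 rescaled TPM. In replicates 4 and 5, 12 of the 16 and 9 of the 11 were below each of the other libraries in rescaled TPM, against 50.1% of genes, and 7 and 8 were below with median-centring, against 25.4%.

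Of the genes that act upstream of HOX genes in the embryo, 6 of 9 were over 1 rescaled TPM in every library. The share over all named nuclear genes was 74.3%. The retinoic acid receptor genes RARA (34.3 ± 19.2), RARG (15.0 ± 8.87) and RARB (5.44 ± 1.97) were measured, as were ALDH1A2, which makes retinoic acid, at 16.2 ± 7.77, and the signal GDF11 at 15.0 ± 7.29. CDX4 was listed at 0 in all 6 libraries.

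Other homeobox and T-box genes of body position had a median of 10.9 rescaled TPM over 20 genes, beside 2.58 over the HOX members. The limb and body wall mesenchyme gene PRRX1 (110 ± 40.9) led, followed by MEOX2 (87.1 ± 35.7), PRRX2 (40.3 ± 13.5) and SHOX2 (38.2 ± 9.07). Over 1 rescaled TPM in every library were 16 of the 20, against 74.3% of named nuclear genes. Genes of visceral and mesothelial position had a median of 0.352 over 10 genes, of which 2 passed in every library, against the same 74.3%. NR2F1 (16.1 ± 8.89) and GATA6 (4.60 ± 1.88) led, followed by TCF21 (1.61 ± 1.29), FOXF1 (1.54 ± 0.774) and GATA4 (0.439 ± 0.254).

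**Figure D5:**
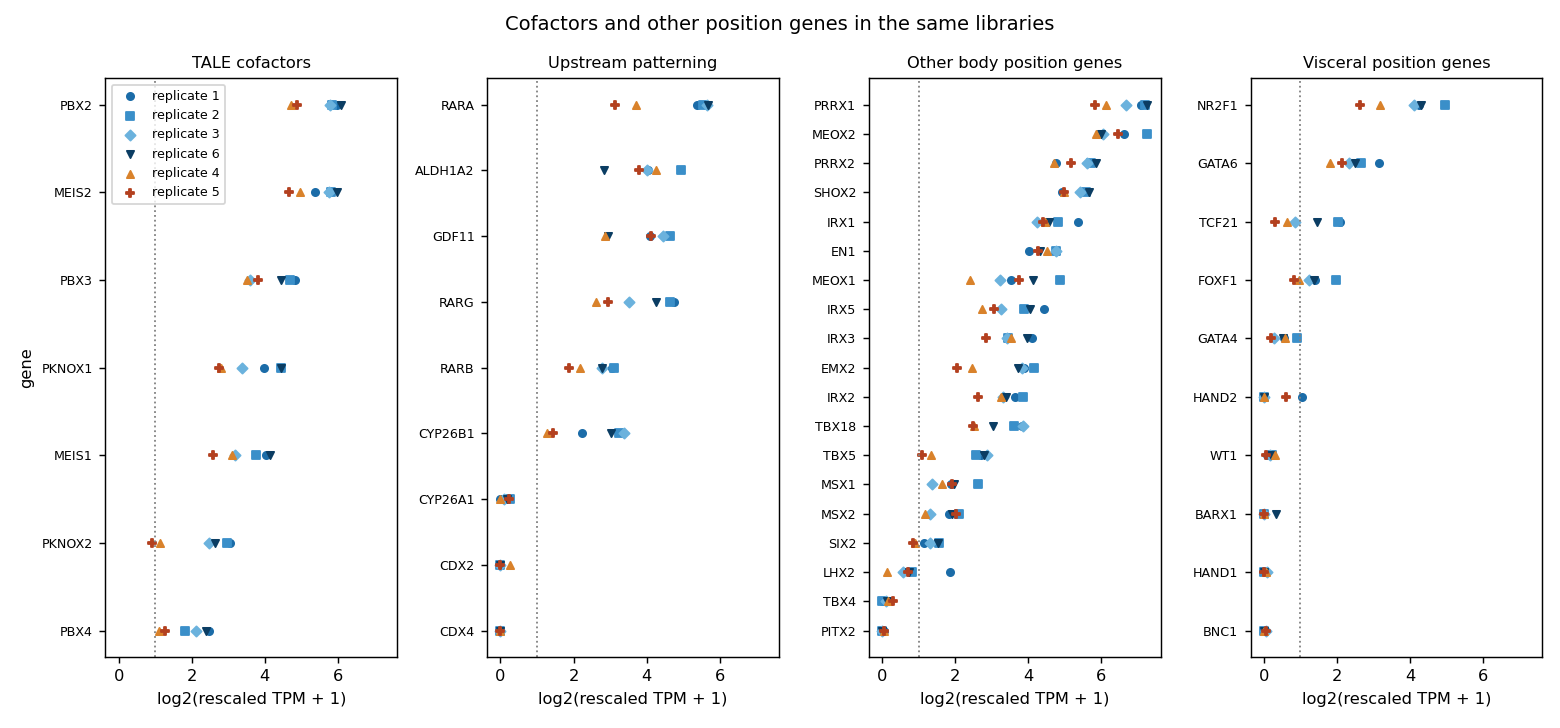
Levels of HOX cofactors, upstream genes and other genes of position as log2(rescaled TPM + 1), 1 row per gene and 1 marker per library, with replicates 4 and 5 in orange and red and a dotted line at 1 rescaled TPM. PRRX1 has the highest mean, 110 rescaled TPM, and CDX4 is at 0 in every library.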

How the data were processed

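Total RNA of the upper backfat of 6 pigs was depleted of ribosomal RNA by the authors, made into stranded libraries and sequenced on an Illumina platform. The authors quantified the libraries with Kallisto 0.43.0 and deposited TPM per Ensembl gene ID, as 1 table in which each library sums to the same total. TPM keep no read counts, so depth and counting error are unknown, and precision comes from the spread between libraries. Rat libraries of the same series were not used here, since the name table pairs no rat ID with a symbol. No column of the pig table was left without a sample. The library name of replicate 6 begins with other letters than the rest, for which the labels give no meaning.

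Symbols were matched by ID and named 14857 of the 25880 pig IDs (57.4%). The 13 mitochondrially encoded protein genes were left out, and each library was rescaled to a total of 1000000 over the remaining 14844. Means and SDs are over 6 libraries, and CV is the SD over the mean, taken where a gene's mean reached 1 rescaled TPM. Log2 differences used a pseudocount of 1 and understate changes of low genes. Python 3.11.15, numpy 2.4.6, pandas 2.3.3 and matplotlib 3.10.9 were used, and the rescaling was tested on simulated data. The study names Sscrofa11.1 as its pig genome, the build of the RefSeq coordinates printed here. Alternatives were other thresholds, scalings and pseudocounts, and leaving out libraries.

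Members, gene lists and alternatives were chosen with earlier results of these data known. Named with all values were the 10 members of highest median, HOXC9 and the highest member of each cluster. Members at 0 or not over 0.1 TPM were also named, and up to 5 of the highest genes of each list. Other members were given by their ranges or means. Each library came from its own pig, so the spread holds both biological and technical variation. Values of a few genes and 1 upstream sequence are not reported here.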

Additional observations from a re-analysis of the deposited data

Results flagged for a closer look

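For each member and for each share of a cluster or block of numbers, the highest and the lowest of the 6 libraries were compared with the nearest of the others. A value was set apart where that gap, as a share of the whole range, exceeded Dixon's critical value at the 95% level for 6 samples. Of 65 sets of values examined, 8 held such a value, and chance alone marks about 1 in 20 sets of independent values. The sets are not independent, since members were examined in TPM and in rescaled TPM, so the number is not set against that rate.

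Of these 8, 6 come from members listed at 0 in the other 5 libraries, where any value is set apart by construction, and each of these 3 members is counted on both scales. HOXC13 was at 0.109 TPM (0.415 rescaled) in replicate 3, HOXA11 at 0.00585 TPM (0.124 rescaled) in replicate 5 and HOXC10 at 0.0196 TPM (0.0745 rescaled) in replicate 6. HOXA9 was at 0.717 TPM in replicate 3 and between 0.0115 and 0.181 TPM in the others. In rescaled TPM it was not set apart, since replicate 4 was also high. Cluster B took 11.4% of the HOX sum in replicate 4 and between 14.8% and 16.3% in the others.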

How the results depend on the processing

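No paired analysis was possible because the pigs formed a single group and no groups were compared. A count was taken as moved when it changed by over 1.5 times, and another value when it changed by over 1 SD between libraries (for the median CV, 1 SD of the values with 1 library left out). The count of members over 0.1 TPM in every library, 10, became 1 over 1 TPM, 21 over 0.1 rescaled TPM and 22 without replicates 4 and 5. The count over 1 rescaled TPM, 16, became 1 over 1 TPM as deposited, and did not move by over 1.5 times with thresholds of 0.5 and 2, median-centring, quantile normalization or without replicates 4 and 5 (20). The median level, 2.58 rescaled TPM, was 0.579 in TPM as deposited and 5.61 over the members above 0.1 TPM in at least 1 library. Rescaling multiplied each library by between 3.80 and 29.9. The lower level and the lower count over 1 TPM as deposited therefore follow from the unit. The median CV, 0.523, was 0.772 in TPM as deposited, 0.407 with median-centring, 0.403 with quantile normalization and 0.294 without replicates 4 and 5. It lay between 0.436 and 0.593 with 1 library left out. As an SD of log2(rescaled TPM + 0.1) the spread was 0.766.

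Without HOXD8, the member of highest mean rescaled TPM, cluster B took 20.0%, numbers 4 to 8 took 71.2% and numbers 9 to 13 took 12.7%. With log2(rescaled TPM + 1) in place of TPM, cluster B took 24.5%, numbers 1 to 3 took 21.5%, numbers 4 to 8 took 61.8% and numbers 9 to 13 took 16.7%. With log2(rescaled TPM / 0.1 + 1), which is never below 0, cluster A took 23.5%, cluster B 25.8%, numbers 1 to 3 took 23.6%, numbers 4 to 8 took 57.2% and numbers 9 to 13 took 19.2%. Numbers 4 to 8 kept the largest share under each of these. The number of members among the 10 highest in every library, 4, was between 4 and 5 with 1 library left out and 6 without replicates 4 and 5, and this alternative and median-centring of the counts for replicates 4 and 5, gene lists included, were added after the data were seen. Levels of the named members moved by over 1 SD for 10 of 11 in TPM as deposited, where the smaller unit alone lowers every level. They moved by less than 1 SD with median-centring, quantile normalization and each library left out.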
